A study of Mus musculus with 3 samples.

Results

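The regions described here are promoter regions of mouse embryonic stem cells (ESCs). They were called for wild-type H2A.Z and for neither of the other libraries used here, at the threshold of 1e-9. They were selected on measured values: a region had to be enriched in the library of tagged wild-type H2A.Z (H2A.Z WT), its midpoint had to lie within 2 kb of a protein-coding transcript start, and it had to overlap no region called for the acidic patch mutant (H2A.Z AP3) and none called for trimethylated lysine 27 of histone H3 (H3K27me3), all at the threshold of 1e-9. Of the 78359 H2A.Z WT regions, 18957 lay at promoters, and 12101 of these (63.8%) met the rule and are called H2A.Z WT-only regions. The other promoter regions were 2886 with H2A.Z AP3 and no H3K27me3, 2793 with H3K27me3 and no H2A.Z AP3, and 1177 with both. The 2 H2A.Z proteins were YFP-tagged transgenes under a doxycycline-inducible CMV promoter in KH2 ESC lines, the AP3 form having its divergent acidic patch residues exchanged for those of H2A. Both lines were sorted for YFP, carried hairpins that depleted the endogenous H2A.Z, and had their tagged chromatin pulled down with anti-GFP. The H3K27me3 library came from wild-type V6.5 ESCs, and the labels give V6.5 as the strain of the tagged lines as well. Each group was 1 library, represented by lists of region coordinates, so read depth is unknown and there is no replicate error to compare with. The 95% Wilson intervals printed here reflect the counting of regions in a list and not variation between cultures. Region lists hold no expression values, so the cell type could not be checked from expression, and the ESC genes Pou5f1, Sox2, Nanog, Klf4, Zfp42, Dppa5a and Tdgf1 had 0 promoter regions for H2A.Z WT. Esrrb, a further ESC gene, had 5, and the feeder fibroblast genes Col1a1, Col1a2, Thy1 and Twist2 had 2, 1, 1 and 2.

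H2A.Z is a histone variant that replaces H2A in nucleosomes flanking the start sites of genes, and it is exchanged by the SRCAP and p400/TIP60 remodelling complexes. It is found at active promoters and, in ESCs, also at the bivalent promoters of developmental genes that carry H3K27me3, the mark laid down by Polycomb repressive complex 2. Mammalian promoters differ widely in base composition, the promoters of broadly expressed genes commonly lying in CpG islands and those of tissue-restricted genes often lying outside them.

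8 H2A.Z WT-only regions are printed to show the range of promoter sequence that met the rule. They were picked after their values were seen, for their contrast in CpG content, and do not stand for their gene groups. Each came from regions of 150 to 300 bp with no exon base, is read from the mm9 reference on the strand of its gene, 5′ to 3′, and has its CpG dinucleotides in capitals. The first 4 lie near the starts of genes used by most cells. Rfc4 encodes a subunit of the clamp loader of DNA replication (chr16:23127926-23128175, midpoint 241 bp upstream of the start), Psmd4 a ubiquitin receptor of the proteasome (chr3:94846226-94846425, in an intron 139 bp downstream), Ube2s a ubiquitin-conjugating enzyme (chr7:4763976-4764225, 159 bp upstream) and Rnf2 the catalytic subunit of Polycomb repressive complex 1 (chr1:153348201-153348425, 360 bp upstream). The other 4 lie at genes of restricted expression. Esrrb encodes a nuclear receptor of the ESC network (chr12:87701726-87701900, 254 bp upstream), Tcl1 a kinase co-activator expressed in ESCs and lymphocytes (chr12:106461076-106461275, 229 bp upstream), Krt42 a keratin (chr11:100129751-100129975, in an intron 1322 bp downstream) and Olfr374 an olfactory receptor (chr8:74629976-74630200, 851 bp upstream).
Rfc4: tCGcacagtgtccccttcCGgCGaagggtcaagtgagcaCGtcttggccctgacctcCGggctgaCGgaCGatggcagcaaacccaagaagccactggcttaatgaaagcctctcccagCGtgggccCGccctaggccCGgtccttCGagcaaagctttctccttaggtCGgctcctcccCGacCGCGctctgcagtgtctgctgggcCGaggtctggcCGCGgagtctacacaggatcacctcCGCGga
Psmd4: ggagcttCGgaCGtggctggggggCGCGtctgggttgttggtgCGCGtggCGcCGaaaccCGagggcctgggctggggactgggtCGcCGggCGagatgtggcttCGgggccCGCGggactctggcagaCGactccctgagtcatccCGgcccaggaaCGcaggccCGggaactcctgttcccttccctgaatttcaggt
Ube2s: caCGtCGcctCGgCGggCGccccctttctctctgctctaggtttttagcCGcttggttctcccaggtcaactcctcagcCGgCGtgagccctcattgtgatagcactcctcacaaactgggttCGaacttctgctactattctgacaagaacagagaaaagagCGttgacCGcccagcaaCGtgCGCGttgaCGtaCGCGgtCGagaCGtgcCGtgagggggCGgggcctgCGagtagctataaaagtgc
Rnf2: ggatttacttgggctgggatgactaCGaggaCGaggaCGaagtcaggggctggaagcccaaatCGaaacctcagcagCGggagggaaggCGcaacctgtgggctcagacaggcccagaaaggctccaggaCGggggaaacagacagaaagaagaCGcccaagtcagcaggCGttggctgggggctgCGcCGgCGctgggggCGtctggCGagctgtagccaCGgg
Esrrb: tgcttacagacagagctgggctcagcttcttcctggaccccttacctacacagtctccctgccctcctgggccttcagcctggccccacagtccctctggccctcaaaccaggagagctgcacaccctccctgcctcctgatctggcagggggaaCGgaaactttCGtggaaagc
Tcl1: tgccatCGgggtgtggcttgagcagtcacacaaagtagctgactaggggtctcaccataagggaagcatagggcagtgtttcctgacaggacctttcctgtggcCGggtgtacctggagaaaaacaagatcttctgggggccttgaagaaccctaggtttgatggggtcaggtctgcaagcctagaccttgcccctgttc
Krt42: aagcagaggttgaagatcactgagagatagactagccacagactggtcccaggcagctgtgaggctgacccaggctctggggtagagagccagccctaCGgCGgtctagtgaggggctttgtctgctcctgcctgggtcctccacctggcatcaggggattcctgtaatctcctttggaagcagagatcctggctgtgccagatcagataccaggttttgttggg
Olfr374: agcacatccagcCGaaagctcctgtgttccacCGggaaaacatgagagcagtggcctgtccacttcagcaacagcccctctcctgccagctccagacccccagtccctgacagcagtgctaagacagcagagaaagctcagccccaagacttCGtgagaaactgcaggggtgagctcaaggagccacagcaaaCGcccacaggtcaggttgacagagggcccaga

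The 4 regions at broadly used genes held 20, 19, 22 and 15 CpGs, in the order printed, and had CpG observed/expected ratios of 0.778, 0.805, 1.03 and 0.694. The 4 regions at restricted genes held 2, 2, 2 and 4 CpGs, with ratios of 0.129, 0.137, 0.112 and 0.210. The contrast did not extend to all regions of this length that the same rule drew from the gene lists. Regions at the broadly used genes Rpl14, of the ribosome, and Mre11a, of DNA repair, held 4 CpGs each at ratios of 0.427 and 0.397, and that at Isl1, a developmental transcription factor, held 15 at 0.680. GC content overlapped between the sets, at 58.4 to 69.5% in the first and 54.5 to 61.1% in the second. All but the Tcl1 region also held an H2A.Z WT region of the stricter 1e-12 list. The nearest H2A.Z AP3 region lay 1350 bp from the Krt42 region and between 10925 and 113425 bp from the other 7.

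The neighbourhood of the H2A.Z WT-only regions was in most cases free of the other signals. The median distance to the nearest H2A.Z AP3 region was 27225 bp and to the nearest H3K27me3 region 67900 bp, and 20.1% of regions lay over 100 kb from any H2A.Z AP3 region. A smaller set was close to one: 1335 regions (interval 10.5 to 11.6%) had H2A.Z AP3 within 1 kb, 1291 (10.7%) had H3K27me3 within 1 kb, and 2417 had either. Such neighbours were not particular to the WT-only set. Of regions with H3K27me3 and no H2A.Z AP3, 14.8% (interval 13.5 to 16.1) had H2A.Z AP3 within 1 kb, a higher share. Of regions with H2A.Z AP3 and no H3K27me3, 11.7% (10.6 to 12.9) had H3K27me3 within 1 kb, near the 10.7% of WT-only regions. WT-only regions that touched their neighbour without sharing a base numbered 34 for H2A.Z AP3 and 52 for H3K27me3. These distances follow in part from the rule, which left out regions that overlapped.

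The values just inside and just outside the limits were as follows. The midpoints of the regions at Atp4b and Dnaic2 lay 2000 bp from a start, while those at Tspan9 and Mboat2 lay 2001 and 2002 bp away. Regions at Nbeal1 and Usp40 touched an H2A.Z AP3 region with 0 shared bases, whereas those at Lrrc67 and Ncoa2 shared 25 bp and were left out. Likewise, the regions at Plcl1 and Pcp4l1 touched H3K27me3, and those at Gm9947 and Tcfap2b shared 25 bp with it. The lists have a resolution of 25 bp, and 351 of the 4063 promoter regions that overlapped H2A.Z AP3 (8.64%) did so by that single step.

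Some H2A.Z WT-only regions did hold mutant signal in the second deposited list. A H2A.Z AP3 region of the 1e-12 list overlapped 451 of them (3.73%, interval 3.40 to 4.08), against 17.6% of all promoter H2A.Z WT regions, a share that the rule lowers. The 451 regions were long, with a median of 675 bp, 444 of them held H2A.Z WT at 1e-12, and 76 lay on chromosomes 6 and 8. An example is Ndufb2, a subunit of respiratory complex I, whose 900-bp region had 0 bp of H2A.Z AP3 at 1e-9 within 2 kb of its midpoint and 925 bp at 1e-12. For H3K27me3 the same was true of 47 regions (0.388%). The lists at 1e-12 are therefore not subsets of those at 1e-9.

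H2A.Z WT-only regions were short. Their median length was 300 bp, with a middle range of 175 to 550 bp and a full range of 25 to 3600 bp, compared with 550 bp for regions with H2A.Z AP3 and no H3K27me3, 550 bp for regions with H3K27me3 and no H2A.Z AP3, and 950 bp for regions with both. On each of the 20 chromosomes the median was lower than that of the regions with H2A.Z AP3 and no H3K27me3. Regions of at most 100 bp made up 13.8% of the WT-only set and 2.08% of the regions with H2A.Z AP3 alone, and 709 WT-only regions (5.86%) reached 1000 bp. A short region has fewer bases in which to overlap another list, so length is tied to the rule and these values are a description. The WT-only share of all promoter regions fell from 86.9% among regions of 25 to 75 bp, through 74.2% at 200 to 375 bp, to 35.2% at 800 bp and more.

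**Figure D1:**
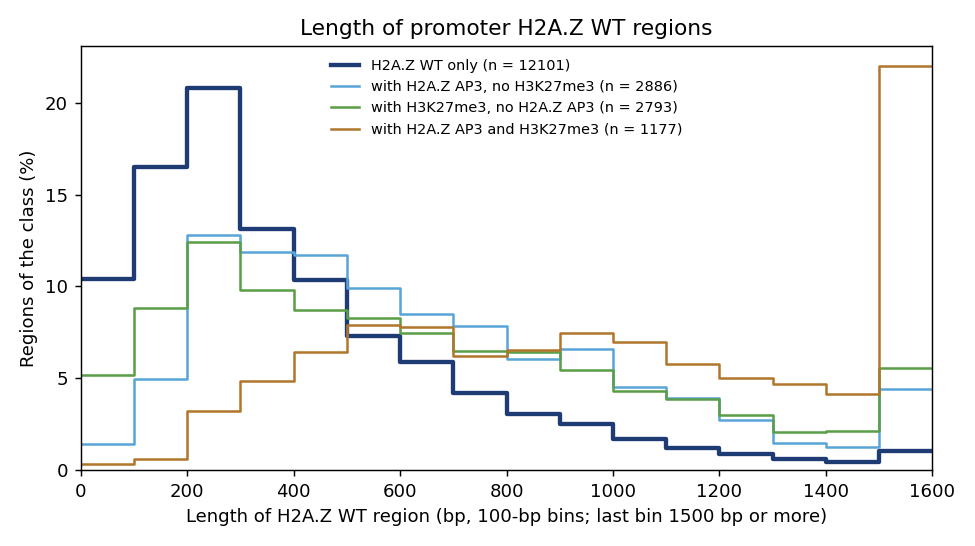
Length of promoter H2A.Z WT regions in bp (x axis, 100-bp bins, the last holding all regions of 1500 bp or more) against the percentage of each class (y axis). WT-only regions (dark blue, n = 12101) peak at 200 to 300 bp and have a median of 300 bp, whereas the classes with H2A.Z AP3, H3K27me3 or both have medians of 550, 550 and 950 bp.

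Most of the H2A.Z WT-only regions also passed the stricter threshold. An H2A.Z WT region of the 1e-12 list lay in 9985 of them (82.5%, interval 81.8 to 83.2), against 87% of all promoter H2A.Z WT regions. The share was 97.3% for regions with H2A.Z AP3 and no H3K27me3, which held fewer short regions. At 100 to 175 bp, 65.1% of WT-only regions and 78.5% of those with H2A.Z AP3 alone were kept, while at 400 to 775 bp the shares were 98.2% and 99.8%. In the shortest band, of 25 to 75 bp, 3.90% of 1258 WT-only regions and 2.44% of 41 regions with H2A.Z AP3 and no H3K27me3 were kept.

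H2A.Z WT-only regions were centred just downstream of the start site. The most frequent position of the midpoint was 100 to 150 bp downstream, which held 7.34% of the regions, and the highest upstream value was 4.46% in the last 50 bp before the start. In all, 7740 regions (64.0%, interval 63.1 to 64.8) had their midpoint downstream, 5652 of them within 500 bp. A further 2783 (23.0%) lay within 500 bp upstream. This position was not particular to the WT-only set. All promoter H2A.Z WT regions peaked in the same bin, at 6.56%, and 64.6% of them lay downstream. The downstream share was 59.8% with H2A.Z AP3 and no H3K27me3, 67.8% with H3K27me3 and no H2A.Z AP3, and 75.1% with both. The profile had a shoulder 100 to 400 bp upstream, visible in the plot of midpoints. Regions with H2A.Z AP3 and no H3K27me3 peaked at the same downstream position, at 7.52%, and were more often in the 50 bp before the start, at 7.28%. Regions with H3K27me3 and no H2A.Z AP3 were spread farther into the gene, with a maximum of 3.83% at 400 to 450 bp.

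**Figure D2:**
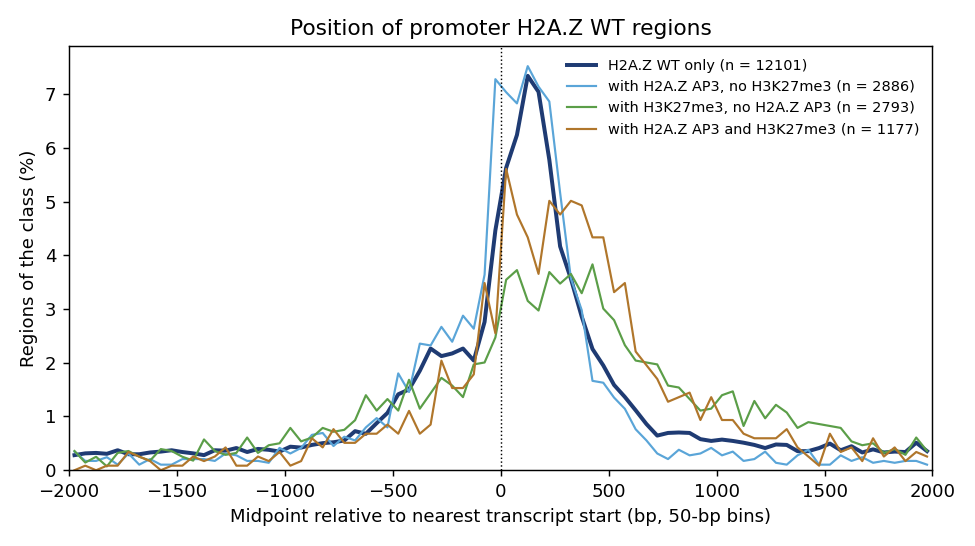
Midpoint of each promoter H2A.Z WT region relative to the nearest protein-coding start in bp (x axis, 50-bp bins, negative upstream) against the percentage of the class (y axis). WT-only regions (dark blue) peak at 100 to 150 bp downstream with 7.34%, the class with H2A.Z AP3 and no H3K27me3 (light blue) is higher just before the start, and both classes with H3K27me3 extend farther downstream.

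More H2A.Z WT-only regions lay downstream than upstream in each length band. Among regions of 100 to 175 bp, 60.4% (interval 58.2 to 62.5) of WT-only regions and 34.0% (26.8 to 42.1) of those with H2A.Z AP3 and no H3K27me3 lay downstream, and at 200 to 375 bp the shares were 62.4% and 52.0%. For regions of 800 bp and more the shares were 67.9% and 66.6%, with overlapping intervals. By the annotation, the midpoints of 5042 WT-only regions (41.7%) fell in an exon and 4202 (34.7%) in an intron of a protein-coding transcript. The remaining 2857 (23.6%) lay outside exons and outside protein-coding transcripts. Over all promoter H2A.Z WT regions the shares were close to these, at 42.3%, 34.4% and 23.3%.

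A smaller group of H2A.Z WT-only regions lay away from the start. Midpoints over 1 kb from it were found for 1849 regions (15.3%, interval 14.6 to 15.9), near the 15.1% of all promoter H2A.Z WT regions. The share was 8.21% (7.27 to 9.27) with H2A.Z AP3 and no H3K27me3, and 22.4% (20.9 to 24.0) with H3K27me3 and no H2A.Z AP3. The distal WT-only regions had a median length of 225 bp, against 350 bp for the 8435 WT-only regions within 500 bp. They were kept at 1e-12 in 72.1% of cases (interval 70.0 to 74.1), against 86.6% (85.9 to 87.3) for the proximal regions.

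The base composition of H2A.Z WT-only regions covered both CpG-rich and CpG-poor promoters. The median CpG observed/expected ratio, which is near 1 where CpGs are not depleted, was 0.586 (interval of the median 0.578 to 0.595). Over all promoter H2A.Z WT regions it was 0.608. CpG-rich regions, defined as a ratio of at least 0.6 with at least 55% GC, numbered 5489 (45.4%, 44.5 to 46.2). Of all promoter H2A.Z WT regions 48.6% were CpG-rich. The median ratio was 0.629 (0.621 to 0.641) for regions with H2A.Z AP3 and no H3K27me3, and it was lower in the WT-only set on 16 of 20 chromosomes. By length, the WT-only and H2A.Z AP3-alone medians were 0.508 and 0.506 at 100 to 175 bp and 0.593 and 0.618 at 200 to 375 bp. They were 0.637 and 0.653 at 400 to 775 bp, and 0.593 and 0.623 at 800 bp and more. At 25 to 75 bp, with 41 H2A.Z AP3-alone regions, they were 0.445 and 0.564. The part of length and of distance from the start in the difference was not tested. The WT-only set held 2368 regions with a ratio under 0.3 (19.6%, 18.9 to 20.3), against 15.5% of all promoter H2A.Z WT regions. The share was 10.7% (9.63 to 11.9) with H2A.Z AP3 and no H3K27me3 and 8.49% with H3K27me3 alone.

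CpG content followed the distance from the start. The median ratio of H2A.Z WT-only regions was 0.683 from 1 to 500 bp downstream and 0.613 from 0 to 500 bp upstream, and it was 0.296 and 0.341 in the outermost upstream and downstream kilobase. Of the proximal WT-only regions 56.0% were CpG-rich, and of those over 1 kb away 11.2%. GC content changed less, with medians of 61.5% for the proximal and 57.3% for the distal regions.

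**Figure D3:**
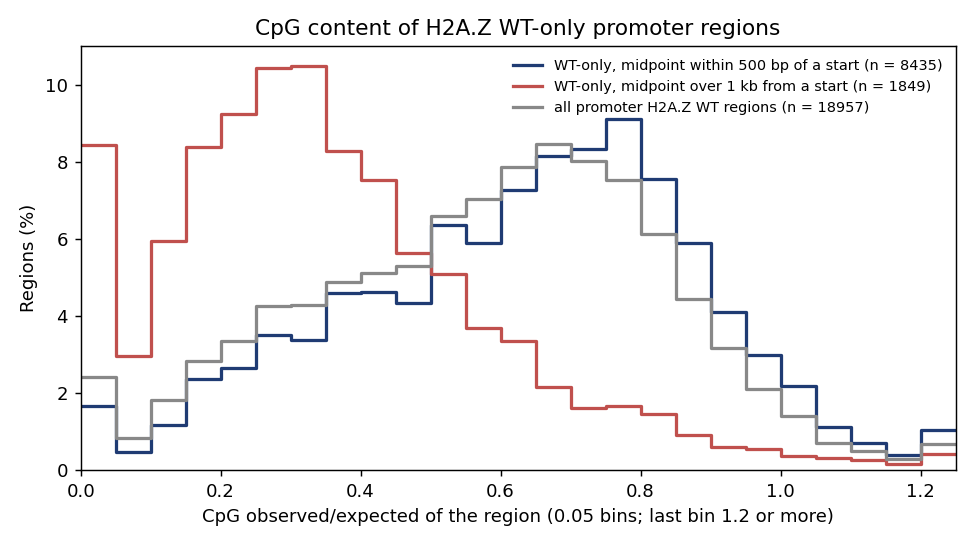
CpG observed/expected ratio (x axis, 0.05 bins) against the percentage of regions (y axis) for WT-only regions with midpoint within 500 bp of a start (dark blue, n = 8435, median 0.662), WT-only regions over 1 kb away (red, n = 1849, median 0.321) and all promoter H2A.Z WT regions (grey, n = 18957, median 0.608). The distal WT-only regions lie at lower ratios than the proximal ones.

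H2A.Z WT-only regions were richer in GC than the DNA around them, including where CpGs were scarce. The median GC content was 60.3%, and that of windows of the same length placed 2 kb to either side was 46.0%. The region exceeded the mean of its flanks in 95.7% of the 12099 regions for which both could be read. The median excess was 8 percentage points among the regions with a CpG ratio under 0.3, of which 89.0% exceeded their flanks, and 7.33 points among those over 1 kb from a start. The values were alike in the other classes, with flanks of 45.5% and an excess of 15.2 points for regions with H2A.Z AP3 and no H3K27me3. Amplified ChIP libraries can over-represent GC-rich fragments, and the part of this in the values was not tested.

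Short letter motifs of promoter factors were searched on both strands in 300 bp centred on each region. The GC box of the SP1 and KLF factors, GGGCGG, was in 38.6% of H2A.Z WT-only windows, 46.3% of windows with H2A.Z AP3 and no H3K27me3, and 40.0% of all promoter H2A.Z WT windows. Within the WT-only set it was in 45.0% of proximal windows and 19.0% of distal ones. The motif of the ETS family, CCGGAAG, was in 8.18% of WT-only windows, near the 7.53% of all promoter H2A.Z WT windows. It was in 10.2% of those with H2A.Z AP3 and no H3K27me3, and 3.54% of those with H3K27me3 and no H2A.Z AP3. The YY1 motif, AAGATGGCG, was in 160 WT-only windows (1.32%), against 1.02% of all promoter H2A.Z WT windows. It was in 1.04% of those with H2A.Z AP3 and no H3K27me3, and in 1 of 2793 with H3K27me3 and no H2A.Z AP3.

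The same letters were also counted from 250 bp before to 50 bp after each start. For genes whose promoter H2A.Z WT regions were all WT-only, 14.5% of 18022 start windows held the ETS motif, 2.71% the YY1 motif (2.49 to 2.96) and 4.27% the NRF1 core GCATGCGC (3.99 to 4.58). Over all 45993 starts these shares were 10.9%, 1.93% and 3.24%. For all genes with promoter H2A.Z WT, with 31395 start windows, they were 12.1%, 2.07% and 3.59%. For genes with H2A.Z WT and H3K27me3 they were 4.16%, 0.371% and 1.92%. The GC box did not follow that order, at 51.6% of the start windows of the WT-only genes, 53.4% of those of the genes with H3K27me3 and 44.3% of all start windows. The TATA letters TATAAA were in 8.24% and 7.90% of the former windows and 11.4% of all. A match of letters is a description of the window and not a bound site, and several starts of a gene share sequence.

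At the level of genes, 9827 of 22342 protein-coding genes (44%) had at least 1 H2A.Z WT-only region at a start. Of the 13517 genes with any promoter H2A.Z WT region, 7868 (58.2%) had only WT-only regions, and 6747 of these had no base of H2A.Z AP3 or H3K27me3 within 2 kb of any start. The remaining 1959 genes combined WT-only regions with others. Most genes had a single WT-only region (7096 genes, 72.2%), 2166 had 2, and 38 had 5 or more. The largest numbers were 10 at Mcf2l, a guanine nucleotide exchange factor with 19 annotated starts, and 8 each at Adcy7, an adenylyl cyclase, and Ank1, the ankyrin of the red cell membrane. Col16a1, a collagen, and Ddr1, a collagen receptor, each had 7, which were all of their promoter H2A.Z WT regions. Starts of more than 1 gene lay within 2 kb of the midpoint for 9.88% of WT-only regions (interval 9.36 to 10.4). This was near the 9.13% of all promoter H2A.Z WT regions. The share was 12.3% (11.1 to 13.5) with H2A.Z AP3 and no H3K27me3 and 4.37% (3.67 to 5.19) with H3K27me3 and no H2A.Z AP3.

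The layout around the start was read for 3495 genes with a single annotated start and WT-only regions alone. In 1218 of them (34.8%) the regions lay downstream, in 1088 (31.1%) 1 region spanned the start, in 607 (17.4%) there were regions on both sides, and in 582 (16.7%) they lay upstream. CpG-rich sequence around at least 1 start, by the same limits, was found for 54.4% of the 7868 genes with WT-only regions alone, 64.5% of the other genes with promoter H2A.Z WT, and 19.3% of genes with none.

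Among genes of the basic cellular machinery that had promoter H2A.Z WT, most had WT-only regions alone. In respiratory complex I, 28 of 41 genes had promoter H2A.Z WT, and in 24 of these (85.7%, interval 68.5 to 94.3) all regions were WT-only, against 58.2% over all genes. The corresponding numbers were 20 of 25 for RNA polymerase II and the general transcription factors, 28 of 36 for cytosolic ribosomal proteins, 27 of 35 for spliceosome components, 20 of 26 for aminoacyl-tRNA synthetases, 24 of 33 for the proteasome and 45 of 64 for mitochondrial ribosomal proteins. DNA replication had 21 of 31, DNA repair 25 of 39, Mediator 16 of 23 and ubiquitin-conjugating enzymes 15 of 20. Having promoter H2A.Z WT at all was less common for cytosolic ribosomal proteins, with 36 of 85 genes (42.4%) against 60.5% of all genes, and 29 of the 85 (34.1%) had a WT-only region, against 44% of all genes. H2A.Z AP3 was called near the start of 22.3% of all genes, and these lists lay on both sides of that value. The shares were 35.6% for DNA repair, 29.3% for DNA replication, 29.0% for Mediator and 28.0% for spliceosome genes. Mitochondrial ribosomal proteins had 27.6% and synthetases 24.3%. Lower shares were found for ubiquitin-conjugating enzymes (21.9%), complex I and the proteasome (19.5% each). RNA polymerase II with the general factors had 17.9% and cytosolic ribosomal proteins 15.3%. In all of these lists H3K27me3 was called near at most 3 genes, so the rule on H3K27me3 removed few of them. Over all genes it was called near 3984 (17.8%), which lowers the 58.2%. Part of the distance between these lists and that value therefore follows from the rule. The lists were small, and the intervals of the synthetases, proteasome, DNA replication, DNA repair, Mediator and ubiquitin-conjugating enzymes held the value for all genes.

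**Figure D4:**
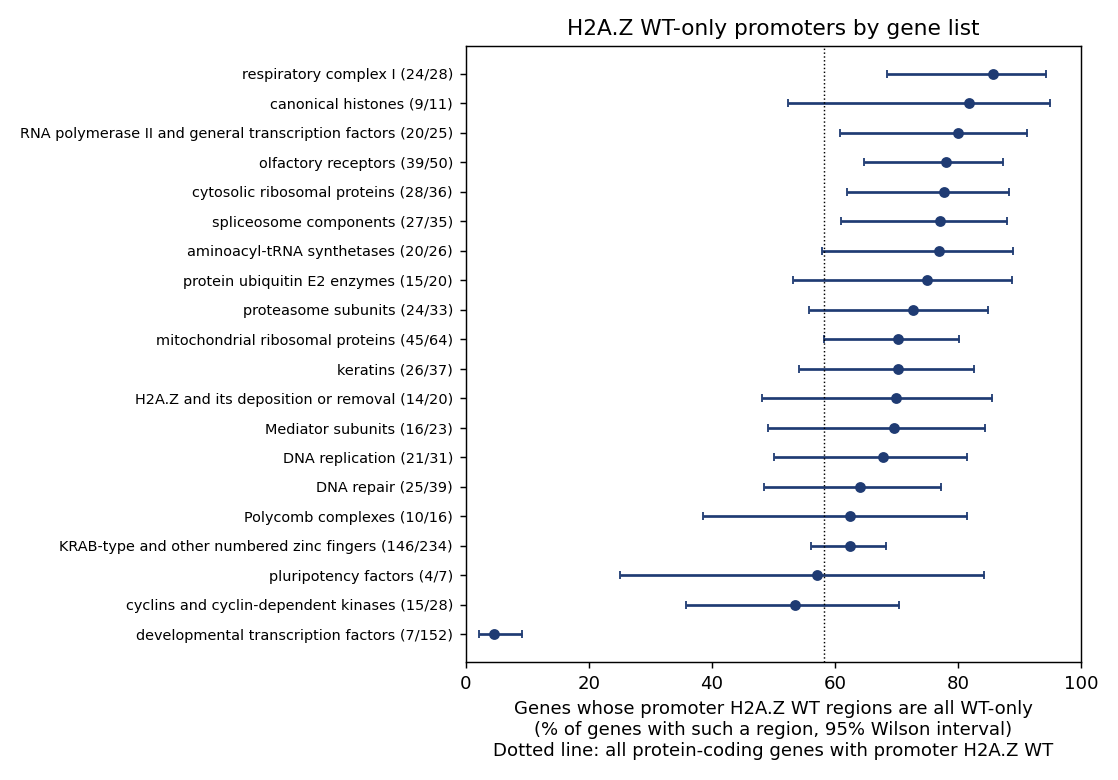
Percentage of genes in each list whose promoter H2A.Z WT regions are all WT-only (x axis, with 95% Wilson intervals), among genes of the list with such a region (numbers in brackets); the dotted line is 58.2%, the value for all protein-coding genes. Respiratory complex I is highest at 85.7% and the developmental transcription factors are lowest at 4.61%. Genes with H3K27me3 lower the value for all genes.

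The longest H2A.Z WT-only regions of these lists often spanned the start. At Mrps26, a protein of the mitochondrial ribosome, a region of 1125 bp on chr2:130388876-130390000 had its midpoint 40 bp upstream of the start. 800 bp of it were covered at 1e-12, and H2A.Z AP3 and H3K27me3 covered 0 bp within 2 kb of the midpoint. Med31, a Mediator subunit, had 1025 bp, Orc6, a subunit of the origin recognition complex, 1175 bp, and Ndufa6 of complex I 1000 bp, each with 0 bp of H2A.Z AP3 and of H3K27me3. Several of them were shared by neighbouring genes that start back to back. A region of 1025 bp on chr13:108948301-108949325 lay at the starts of Ndufaf2, a complex I assembly factor, and Ercc8, a factor of transcription-coupled repair, and a region of 800 bp lay at those of the histidyl-tRNA synthetases Hars and Hars2. Some long list members were tissue-restricted relatives rather than the ubiquitous subunit. Psmb11, the thymus-specific proteasome subunit, had 1275 bp with a CpG ratio of 0.400, and Rpl3l, a muscle paralogue of the ribosomal protein gene Rpl3, had 1100 bp with a ratio of 0.320.

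**Figure D5:**
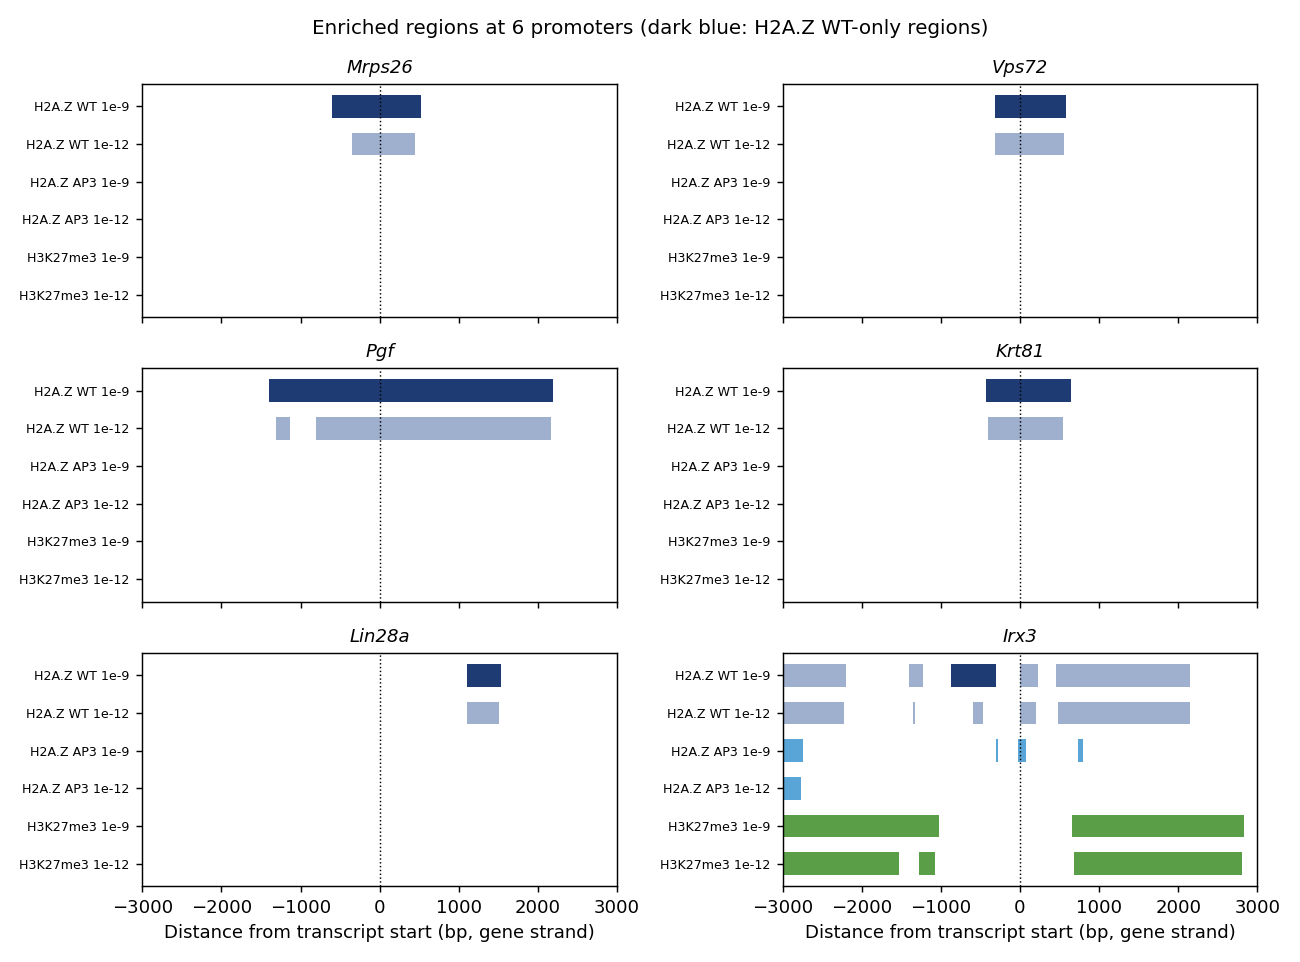
Regions of the 3 libraries at both thresholds (rows) around 6 starts, by distance from the start in bp on the gene's strand (x axis); dark blue bars are WT-only regions. The WT-only regions of Mrps26 (1125 bp), Vps72 (900 bp), Pgf (3600 bp), Krt81 (1075 bp) and Lin28a (425 bp) have no other library within view, whereas that of Irx3 (575 bp) lies between H3K27me3 regions.

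The genes of H2A.Z itself and of the complexes that deposit or remove it were a mixed list. In it Srcap had 2 entries, each with 0 promoter H2A.Z WT regions. Counting both, 20 of 27 genes had promoter H2A.Z WT, and 14 of the 20 had WT-only regions alone (70.0%, interval 48.1 to 85.5). This interval held the 58.2% over all genes. Vps72, the subunit that binds the H2A.Z–H2B dimer, had 900 bp on chr3:94914626-94915525. Znhit1, a subunit of the SRCAP complex, had 850 bp, and Trrap, a scaffold of TIP60 complexes, 775 bp. Each had 0 bp of H2A.Z AP3 and H3K27me3 within 2 kb of a start. The H2A.Z gene H2afz had a single region of 75 bp, and H2afv, which encodes the second H2A.Z protein, had 0.

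Of 16 Polycomb genes with promoter H2A.Z WT, 10 had WT-only regions alone (62.5%, interval 38.6 to 81.5), near the 58.2% over all genes. Suz12, a core subunit of Polycomb repressive complex 2, had 425 bp, as did Rybp of Polycomb repressive complex 1, and the Rnf2 region printed above had 225 bp. Cbx2 also met the rule for its 2 regions, although 875 bp of H3K27me3 lay within 2 kb of its starts. Of 22 pluripotency genes, 7 had promoter H2A.Z WT and 4 of the 7 (57.1%, close to the share over all genes) had WT-only regions alone: Dnmt3b, a de novo DNA methyltransferase, with 1075 bp in 2 regions, Lin28a, an RNA-binding protein, with 425 bp, Nr5a2, a nuclear receptor, with 375 bp, and Tcl1 with 200 bp. The Lin28a region lay 1318 bp downstream of the start, in an intron.

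Developmental transcription factors were at the other end, which the rule on H3K27me3 largely fixes, since 150 of the 165 genes had H3K27me3 at their promoters. Hoxa3 had 2 entries among the 165, both with H2A.Z WT and H3K27me3 at the promoter. Of 152 with promoter H2A.Z WT, 28 had a WT-only region and 7 had WT-only regions alone (4.61%, interval 2.25 to 9.20). Hoxc13, a homeobox gene, was among the latter and nonetheless had 2076 bp of H3K27me3 within 2 kb of its start, outside its WT-only region of 475 bp. At Irx3, also a homeobox gene, the WT-only region of 575 bp lay 150 bp from H3K27me3, touched a H2A.Z AP3 region, and was 1 of 4 promoter H2A.Z WT regions. Such cases show that the rule was applied to regions and not to whole promoters.

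H2A.Z WT-only promoters were also found at gene families of restricted expression. Of 46 keratin genes, which form the intermediate filaments of epithelia, 37 had promoter H2A.Z WT. Of the 37, 26 had WT-only regions alone (70.3%, interval 54.2 to 82.5), and this interval held the 58.2% over all genes. A CpG-rich start was found for 0 of the 46 genes. Krt81, a hair keratin, had a region of 1075 bp across its start with a CpG ratio of 0.377. Of 1087 olfactory receptor genes 50 had promoter H2A.Z WT (4.60%, against 60.5% of all genes). Of these 50, 39 had WT-only regions alone (78.0%, interval 64.8 to 87.2, against 58.2%). H3K27me3 was called near only 3 of the 1087. The longest, at Olfr94, Olfr1344 and Olfr1349, measured 1025, 1000 and 1000 bp and had their midpoints in the exon. The numbered zinc-finger genes, many of which encode transcriptional repressors, had 146 of 234 (62.4%) and the cyclins and cyclin-dependent kinases 15 of 28 (53.6%), both with intervals that held the 58.2% of all genes. Of 67 canonical histone genes 11 had promoter H2A.Z WT (16.4%, against 60.5% of all genes). WT-only regions alone were found for 9 of the 11 (interval 52.3 to 94.9%), and this interval also held 58.2%. Near-identical members of these families can share reads, so a region at one of them may hold reads of another.

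The 10 longest H2A.Z WT-only regions measured 2325 to 3600 bp. The longest was at Pgf, which encodes placental growth factor, on chr12:86516051-86519650. It ran across the start with 3150 bp covered at 1e-12, 0 bp of H2A.Z AP3 and H3K27me3 within 2 kb of its midpoint, and 79 CpGs at a ratio of 0.257. Next came Rbp3, a retinoid carrier of the retina, with 2825 bp, and F10, coagulation factor X, with 2750 bp. Prss33, a serine protease, had 2525 bp, C8g, a complement subunit, had 2475 bp, and Tlr12, a Toll-like receptor, had 2375 bp. The CpG ratio was 0.230 to 0.662 among the 10, and at 9 of them it was under 0.6, the exception being Pwwp2b. Ehmt2, a histone H3 lysine 9 methyltransferase, was among them with 2325 bp and a ratio of 0.397.

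The share of promoter H2A.Z WT regions that were WT-only differed between chromosomes. It was 61.6 to 69.6% on 17 autosomes, 51.3% (interval 48.5 to 54.1) on chromosome 6 and 54.0% (51.2 to 56.8) on chromosome 8. On those 2 chromosomes H2A.Z AP3 overlapped 40.2% and 38.6% of promoter regions, against 16.9 to 21.4% on the other autosomes, while H3K27me3 overlapped 21.5% and 16.3%, against 17.4 to 26.9% on the other autosomes. Without them the genome-wide share of WT-only regions was 65.5%. On the X chromosome 323 of 384 promoter regions were WT-only (84.1%, interval 80.1 to 87.4), with 8.59% overlapped by H2A.Z AP3 and 8.07% by H3K27me3. Promoter H2A.Z WT regions were shorter there, with a median of 200 bp against 350 to 475 bp on the autosomes. The part of DNA copy number and of region length in these values was not tested.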

How the data were processed

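ChIP-Seq reads were aligned by the authors to mm9 with Bowtie 0.12.3 allowing 2 mismatches, extended to 200 bp and counted in 25-bp bins, and enriched bins were called with a Poisson model at 1e-9 and at least 5-fold over input. These steps are given for H2A.Z. For the H3K27me3 lists and the second lists at 1e-12 the settings are not given in the sources used here beyond the threshold. bedtools is also named in the submitters' processing notes. The deposited values used here are the start and end coordinates of the regions, without counts, heights or p-values, so depth and precision are unknown. There was 1 library per group (3 libraries).

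Coordinates were compared with the mm9 GENCODE vM1 annotation (22342 protein-coding genes, 45993 starts) with NumPy 2.4.6 and SciPy 1.17.1 under Python 3.11.15, and drawn in Matplotlib 3.10.9. An overlap was at least 1 bp. CpG observed/expected, GC content and letter motifs were read from the mm9 sequence, gene promoters from 500 bp before to 500 bp after a start. Functions were tested on simulated lists. With 1 library per group no test between libraries was made. The members, gene lists and motifs were chosen with earlier results of these data known. Genes named are the 10 longest members, up to 3 per gene list with the longest member, the 2 nearest to each limit of the rule, and those with printed sequences. Genes named beyond this (the ESC markers, those with most regions, and those given by their list counts, such as Suz12, Cbx2, H2afz and H2afv) were chosen after their values were seen. 8 alternative settings were tried.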

Additional observations from a re-analysis of the deposited data

Results flagged for a closer look

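Signal was found at H2A.Z WT-only regions in lists that the rule did not use. H2A.Z AP3 regions of the 1e-12 list overlapped 451 of the 12101 regions, and H3K27me3 regions of the 1e-12 list overlapped 47. Both are above the 0 that would be found if each stricter list lay within its 1e-9 list. The reason why regions are listed at 1e-12 and not at 1e-9 was not tested.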

How the results depend on the processing

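Of 62 recomputed values, 33 stayed within the main value's interval or within 1.5 times the main count, and 29 moved further. All 16 counts of regions and genes stayed within 1.5 times. The WT-only share of promoter regions, 63.8%, became 61.2% with both thresholds joined for H2A.Z AP3 and H3K27me3, 51.1% with neighbours within 1 kb counted as shared, 66.7% with a 5-kb window, 62.7% with the most upstream start, 65.5% without chromosomes 6 and 8, and 61.9% for regions of at least 100 bp. The median length, 300 bp, became 275 bp with H2A.Z WT at 1e-12, 325 and 275 bp with windows of 1 and 5 kb, and 350 bp for regions of at least 100 bp. The share kept at 1e-12, 82.5%, became 84.4% and 79.5% with windows of 1 and 5 kb, 83.6% with the most upstream start and 91.6% for regions of at least 100 bp. The downstream share, 64.0%, became 65.5% and 60.8% with those windows and 67.3% with the most upstream start. The median CpG ratio, 0.586, became 0.598 with H2A.Z WT at 1e-12, 0.570 with neighbours counted as shared, 0.632 and 0.484 with windows of 1 and 5 kb, 0.622 with the most upstream start, 0.595 without chromosomes 6 and 8, and 0.598 for regions of at least 100 bp. The share with H2A.Z AP3 within 1 kb became 12.6% with H2A.Z WT at 1e-12, 12.4% with thresholds joined, 9.68% with a 5-kb window, 11.8% with the most upstream start and 9.63% without chromosomes 6 and 8. Other causes of these moves than the settings' own construction were not tested. No paired analysis was possible because each group held 1 library. The unknown read depth limits every count of regions.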
